A study of Populus x canadensis with 4 samples.

Results

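miR169 is one of the conserved microRNA families of flowering plants. The family was followed here in Populus × euramericana 'Neva', a hybrid poplar, whose leaves were taken after 3 days with para-hydroxybenzoic acid, a phenolic acid, in the culture solution at 0, 2, 4 or 8 mM. Members were all entries of the leaf table whose name carries the number of the miR169 family and no other, whatever the species prefix, arm or variant suffix, with rows of the same sequence summed. The rule took 45 of 738 rows and gave 28 of 529 distinct sequences. Of these, 23 carry a Populus trichocarpa name (prefix ptc), 4 a ppe name and 1 an mdm name. The plants were rooted cuttings grown in water culture for 90 days before treatment, and the untreated plants had the same culture without the acid. Each dose was 1 library made from the mixed RNA of its plants, so no value below has a replicate check and no test between doses was possible. In such mixed leaf RNA, fewer cells that make a microRNA and less of it per cell cannot be told apart, and the table holds no microRNA sure to mark leaf tissue by which the tissue label could be checked.

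A plant microRNA guides an Argonaute protein to transcripts that it pairs with along nearly its whole length, and the transcript is then cut or held back from translation. miR169 pairs with transcripts of NF-YA genes, which encode the DNA-binding subunit of the NF-Y transcription factor that recognises CCAAT boxes. In Arabidopsis the miR169 and NF-YA pair is known for responses to drought and to low nitrogen supply. The hairpin precursor gives a mature strand, which is the guide, and an opposite strand that is usually scarce. Target transcripts were not analysed here.

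The sequences below are shown because the results turn on them. They are given 5′ to 3′ in DNA letters as in the deposited table, with the seed (bases 2 to 8) in capitals. The first set holds mature-strand forms, recognised by the letters GCCANG, which 14 of the 28 members hold on the strand as listed against 0.599% of the 501 other sequences in the table.
ptc-miR169ac_R+2_1ss13AG: tAGCCAAGgacggcttgcccacc
ptc-miR169u-5p_1ss16TA: tAGCCAAGgacgactagccta
ptc-miR169q_R+1: tAGCCAAGgacgacttgcctgt
ptc-miR169v: tAGCCAAGgatgacttgccca
ptc-miR169y_1ss14AT: tAGCCATGgatgatttgcctg
ptc-miR169n-5p_R+1: tGAGCCAAggatgacttgccgc
ptc-miR169t_L+2R-2: cCGAGCCAagaatgacttgcc
ptc-miR169ac_L-1: aGCCAAGGacgacttgccca
The core AGCCAAG was found in 13 members and in 1 of the other 501 sequences. It fell on the seed in 9 members. It began at base 1 in ptc-miR169ac_L-1, at base 3 in ptc-miR169n-5p_R+1 and at base 4 in ptc-miR169t_L+2R-2, so the seeds of these forms are shifted. ptc-miR169y_1ss14AT lacks the core and differs from ptc-miR169i, another member, by A7T and C14T, counted from the 5′ end.

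The second set holds opposite-strand forms, recognised by the letters TTGGNT, which 9 other members and 4.19% of the rest of the table hold. No member holds both motifs, and only the listed strand was searched because small RNA reads have a strand.
ptc-MIR169ae-p3: tGGGCAAGcaccttggctagc
ptc-MIR169af-p3: tTGGGCAAgcaccttggctag
ptc-miR169n-3p: gCAAGCATccttggttctcc
ptc-MIR169ac-p3: gGCAGTCTccttggctatgc
ptc-miR169u-3p_R-1: gGCAGTCTcctttggctatc
ptc-miR169b-3p_L+1: tGGCAGGTtgttcttggctac
ptc-MIR169ae-p3 and ptc-MIR169af-p3 are the same letters over 20 bases, shifted by 1. The remaining 5 members hold neither motif. These are the 4 ppe-MIR169i forms and mdm-MIR169b-p3_1ss6AG, and the most abundant of them is a pyrimidine-rich stretch unlike miR169.
ppe-MIR169i-p3_2ss16GT19TA: tTCTCTTCtttctttttta
The strand motifs were chosen from the sequences after the table was seen.

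The untreated library had 2640653 reads in the table, and the treated ones, in order of dose, had 4998878, 6369127 and 5310499. Levels below are the authors' normalized read counts, which are raw reads times 1 factor per library. Folds are plain ratios of these levels with exact 95% intervals that cover counting error only, since reads amplified by PCR are not independent molecules. The authors' scaling leaves the whole table larger in the treated libraries. Setting the libraries to equal table totals lowers every log2 ratio to 0 mM by 0.46 at 2 mM, 0.57 at 4 mM and 0.40 at 8 mM, less for scarce sequences, and for miR169 totals and members this second value is given where it turns the direction of a ratio to 0 mM or ends a 2-fold one. Sequences of 18 nt held 0.526% of the untreated reads and 0.0432% to 0.0865% in the treated libraries, so the untreated library stood apart in length, and the part of this in the results was not tested.

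The miR169 total was higher in each treated library than in the untreated one, and highest at 4 mM. It stood at 8610 normalized read counts without the acid, and at 11200.0, 14079 and 11937 in order of rising dose. The order of the levels was thus 0, 2, 8 and 4 mM. Against 0 mM the total was 1.301-fold higher at 2 mM (1.26 to 1.34), 1.64-fold higher at 4 mM (1.59 to 1.68) and 1.39-fold higher at 8 mM (1.35 to 1.43). It was 1.26-fold higher at 4 than at 2 mM (1.23 to 1.29) and 1.18-fold lower at 8 than at 4 mM (1.15 to 1.21). These differences are beyond counting error, but they rest on the scaling. As a share of all reads in the table, miR169 held 0.240% without the acid (95% interval by Wilson's method, 0.235 to 0.246). In the treated libraries the share was 0.227% (0.223 to 0.231) for the lowest dose, 0.265% (0.261 to 0.269) for the middle one and 0.252% (0.248 to 0.256) for the highest. With equal table totals the log2 ratios to 0 mM were -0.08, 0.14 and 0.07 at 2, 4 and 8 mM, in place of 0.38, 0.71 and 0.47, so the direction at 2 mM turned. Factors from the median ratio over sequences found in every library (median-of-ratios) gave 0.36, 0.70 and 0.46. The table totals include miR472, the most abundant family, which had 925428 raw reads at 0 mM and 3154882 at 4 mM. Its part in the difference between scalings was not tested.

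**Figure D1:**
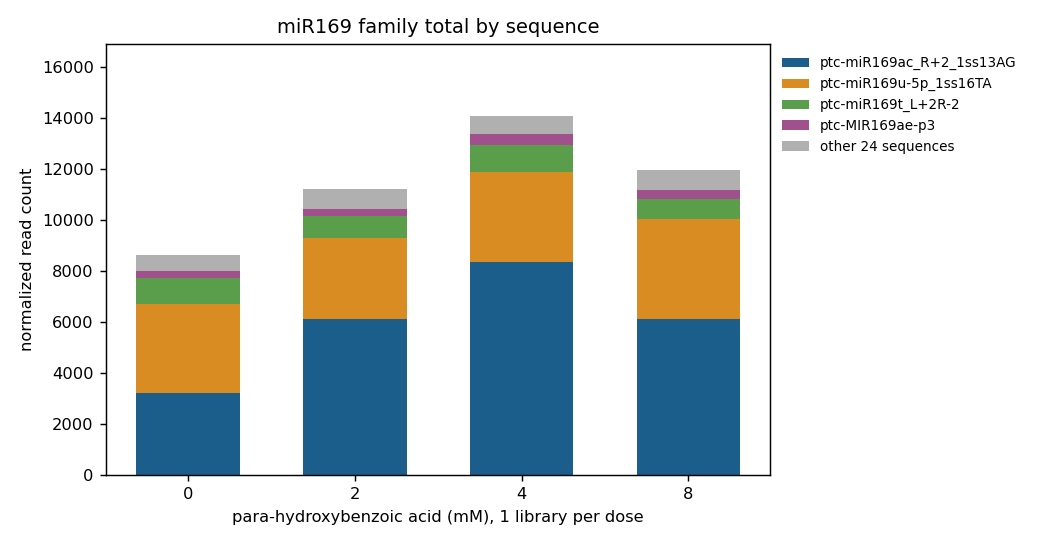
Normalized read count of the miR169 family (vertical axis) in the 4 libraries, by dose in mM (horizontal axis), with 1 library per dose and no error bars. Each bar is split by sequence, and ptc-miR169ac_R+2_1ss13AG is the segment that grows from 3221 at 0 mM to 8345 at 4 mM while ptc-miR169u-5p_1ss16TA stays between 3174 and 3917.

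The higher total was carried mostly by a single sequence, ptc-miR169ac_R+2_1ss13AG, the most abundant member at 2, 4 and 8 mM. Its level was 3221 normalized read counts without the acid, then 6093, 8345 and 6100.4 in order of rising dose. The untreated library was the lowest and 4 mM the highest, with 2 and 8 mM close together between them. It was 1.89-fold higher at 2 mM (1.804 to 1.98), 2.59-fold higher at 4 mM (2.48 to 2.71) and 1.89-fold higher at 8 mM (1.81 to 1.99). Equal table totals took the 4 mM value below 2-fold, at a log2 ratio of 0.81 in place of 1.37. The sequence held 37.4% of the family's reads without the acid, then 54.4%, 59.3% and 51.1% with rising dose. Without it the rest of the family stood at 5389, 5107, 5734 and 5836 normalized read counts. That rest was 1.055-fold lower at 2 mM (1.01 to 1.10), 1.064-fold higher at 4 mM (1.02 to 1.11) and 1.083-fold higher at 8 mM (1.04 to 1.13). It was lower at each dose with equal table totals, at log2 ratios of -0.54, -0.48 and -0.29 in place of -0.08, 0.09 and 0.12. The 25 sequences other than the 3 most abundant were together 1.18-fold higher at 2 mM (1.07 to 1.30). They were 1.29-fold higher at 4 mM (1.17 to 1.41) and 1.27-fold higher at 8 mM (1.16 to 1.40). Their share of all reads in the table was lower than at 0 mM, at 0.0248%, 0.0213%, 0.0216% and 0.0239% in order of dose.

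This form is not the listed ptc-miR169ac sequence. The suffix is read here as 2 added bases at the 3′ end and A13G, counted from the 5′ end, and the table's trimmed form ptc-miR169ac_L-1 gives the base of the listed microRNA at that place. Over their 20 shared bases the 2 forms differ by A13G alone. The differing base and the added end lie outside the seed. Only the differing base is in capitals below.
ptc-miR169ac_R+2_1ss13AG: tagccaaggacgGcttgcccacc
ptc-miR169ac_L-1: agccaaggacgacttgccca
The trimmed form did not share the pattern. Its level was 48.6 normalized read counts without the acid, then 39.8, 39.2 and 43.3 with rising dose. None of its folds to 0 mM had an interval that excluded 1, the lowest being 1.24-fold lower at 4 mM (0.785 to 1.97). The ratio of the 23 nt form to the trimmed one went from 66.3 (47.5 to 94.4) at 0 mM to 153 (113 to 216) at 2 mM, 213 (160 to 290) at 4 mM and 141 (106 to 189) at 8 mM. The A13G form stands in 2 rows with equal values, which were summed. Read from 1 row, its levels would be 1610, 3047, 4173 and 3050.2, with the same folds.

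The second sequence, ptc-miR169u-5p_1ss16TA, has the same seed and nearly the same level in all 4 libraries. It stood at 3491 normalized read counts without the acid, then 3174, 3533 and 3917 with rising dose. It was 1.10-fold lower at 2 mM (1.04 to 1.16), 1.01-fold higher at 4 mM (0.963 to 1.06) and 1.12-fold higher at 8 mM (1.07 to 1.18). With equal table totals its log2 ratios were -0.60, -0.55 and -0.24, in place of -0.14, 0.02 and 0.17, so the direction at 4 and 8 mM depends on the scaling. It differs from ptc-miR169q_R+1 by T16A and G21A over 21 bases. The A13G form differs from it by A13G, A16T and T20C over the same length.

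Ratios within a library do not depend on the scaling, and they separate these sequences. Per read of ptc-miR169u-5p_1ss16TA there were 0.923 reads of the A13G form at 0 mM (0.872 to 0.976), then 1.92 (1.84 to 2.00), 2.36 (2.28 to 2.45) and 1.56 (1.499 to 1.62) with rising dose. The 4 intervals do not overlap. With the 2 rows of the A13G form summed, the ratio lay below 1 at 0 mM and above 1 in each treated library. The order of the 2 sequences thus changed on that reading. If the A13G form is read from 1 row, the ratios are 0.461, 0.960, 1.18 and 0.779, with the same relative differences, and it then exceeds the other sequence at 4 mM only. Per read of ptc-miR169t_L+2R-2 the A13G form had 3.19 reads at 0 mM (2.94 to 3.47), then 6.91 (6.44 to 7.41), 7.91 (7.46 to 8.40) and 7.75 (7.23 to 8.32) with rising dose. Here the untreated library again lay below the others, while the interval at 8 mM overlaps those at 2 and 4 mM.

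**Figure D2:**
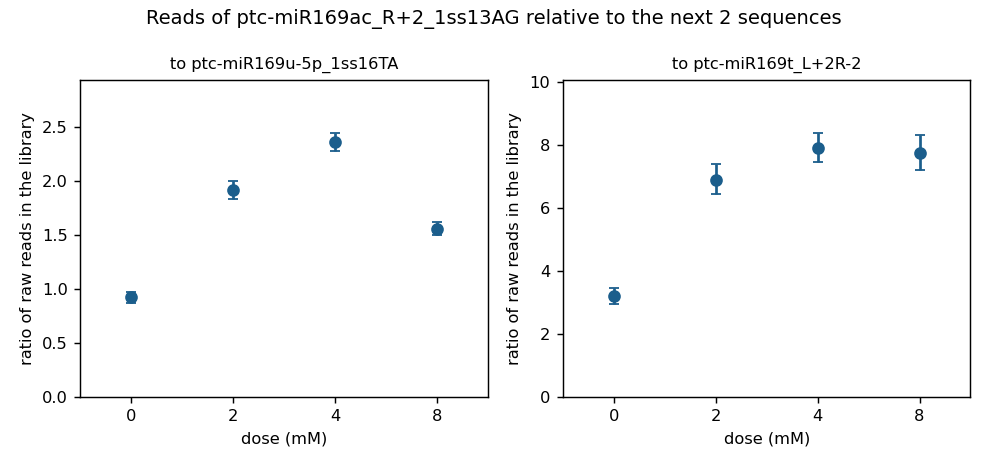
Reads of ptc-miR169ac_R+2_1ss13AG per read of ptc-miR169u-5p_1ss16TA (left) and per read of ptc-miR169t_L+2R-2 (right), against dose in mM, on linear axes from 0. Points are 1 library each and bars are exact 95% counting intervals. The left ratio is 0.923 at 0 mM and 2.36 at 4 mM, and the right ratio is 3.19 at 0 mM and 6.91 or more in the treated libraries.

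ptc-miR169t_L+2R-2, the third most abundant form, is read from its suffix as starting 2 bases before the listed microRNA, and it carries another seed. Its level was 1009 normalized read counts without the acid, then 882, 1055 and 787 with rising dose. It was 1.14-fold lower at 2 mM (1.04 to 1.26) and 1.28-fold lower at 8 mM (1.16 to 1.42), and 1.05-fold higher at 4 mM (0.954 to 1.15). The highest and lowest libraries differed 1.34-fold. Its share of the family's reads was 11.7% at 0 mM and 6.59% at 8 mM. Its log2 ratio at 4 mM was -0.50 with equal table totals in place of 0.06.

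Among the scarcer mature-strand forms, ptc-miR169n-5p_R+1 and ptc-miR169y_1ss14AT were higher in all treated libraries. ptc-miR169n-5p_R+1 stood at 82.7, 204, 159 and 137 normalized read counts in order of dose. It was 2.47-fold higher at 2 mM (1.85 to 3.34), 1.92-fold higher at 4 mM (1.43 to 2.61) and 1.66-fold higher at 8 mM (1.23 to 2.27). Its level was thus highest at 2 mM, where that of the A13G form was highest at 4 mM. ptc-miR169y_1ss14AT, the form with the seed AGCCATG, stood at 42.0, 82.8, 96.6 and 90.0 normalized read counts. It was 1.97-fold higher at 2 mM (1.29 to 3.08), 2.30-fold higher at 4 mM (1.53 to 3.53) and 2.14-fold higher at 8 mM (1.42 to 3.31). With equal table totals both stayed higher than at 0 mM at every dose but below 2-fold, at log2 ratios of 0.84, 0.37 and 0.33 for the first and 0.51, 0.62 and 0.69 for the second.

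ptc-miR169q_R+1 and ptc-miR169v had a narrow range with the authors' scaling. ptc-miR169q_R+1 stood at 87.7, 84.0, 88.8 and 108 normalized read counts in order of dose. ptc-miR169v stood at 59.7, 63.1, 55.0 and 60.6. All 6 of their folds to 0 mM had intervals that held 1, from 1.24-fold higher for ptc-miR169q_R+1 at 8 mM (0.906 to 1.69) down to 1.09-fold lower for ptc-miR169v at 4 mM (0.724 to 1.61). Their log2 ratios were all below 0 with equal table totals, at -0.52, -0.54 and -0.10 for the first and -0.37, -0.67 and -0.37 for the second. ptc-miR169i, named after its values were seen, stood at 30.9, 52.3, 63.1 and 43.7 normalized read counts and was 2.04-fold higher at 4 mM (1.26 to 3.39). Equal table totals took this below 2-fold, at a log2 ratio of 0.46 in place of 1.01. ptc-miR169x_R+1, named after its values were seen, was the mature-strand form with the lowest ratio at 4 mM among those with a mean of 10 or more. It stood at 42.0, 34.5, 10.8 and 33.0 normalized read counts, on 31, 35, 13 and 37 reads. It was 3.88-fold lower at 4 mM than at 0 mM (1.97 to 8.09) and 3.05-fold higher at 8 than at 4 mM (1.58 to 6.24).

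By seed, the 9 members with AGCCAAG at bases 2 to 8 held 80.8% of the family's reads without the acid, then 85.1%, 86.0% and 86.0% with rising dose. The CGAGCCA seed of ptc-miR169t_L+2R-2 and ptc-MIR169aa-p5_2ss1TC19GT held 11.7%, 7.88%, 7.51% and 6.59%. Of the family's reads, sequences of 21 nt made up 57.9% at 0 mM and 37.9% at 4 mM. Those of 23 nt made up 37.4% and 59.4%, almost all of the latter being the A13G form. A 5′ T was found on 86.2%, 91.1%, 91.7% and 91.8% of the family's reads at 0, 2, 4 and 8 mM.

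The mature strand made up most of the family in every library. It held 94.5% of the family's reads at 0 mM (93.9 to 95.1), then 95.9% (95.5 to 96.2), 95.6% (95.3 to 95.9) and 94.9% (94.5 to 95.3) with rising dose. There were 19.2 mature reads per opposite-strand read at 0 mM (17.2 to 21.6), then 24.4 (22.2 to 26.8), 23.1 (21.4 to 25.0) and 19.3 (17.9 to 20.9) with rising dose. The ratio was close at 0 and 8 mM and higher at 2 and 4 mM, although the intervals at 0 and 4 mM overlap. The mature total was 8137, 10739, 13458 and 11327 normalized read counts. It was 1.32-fold higher at 2 mM (1.28 to 1.36), 1.65-fold higher at 4 mM (1.61 to 1.704) and 1.39-fold higher at 8 mM (1.35 to 1.44). Its log2 ratios were -0.06, 0.16 and 0.07 with equal table totals in place of 0.40, 0.73 and 0.48, so the direction at 2 mM turned.

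The opposite-strand total stood at 423, 441, 582 and 586 normalized read counts in order of dose. It was 1.04-fold higher at 2 mM (0.899 to 1.21), 1.38-fold higher at 4 mM (1.202 to 1.58) and 1.39-fold higher at 8 mM (1.21 to 1.59). With equal table totals its log2 ratios were -0.40, -0.11 and 0.07 in place of 0.06, 0.46 and 0.47. ptc-MIR169ae-p3, its most abundant form, made up 62.7% of it at 0 mM and 77.2% at 4 mM. That form stood at 265, 290, 449 and 373 normalized read counts, 1.69-fold higher at 4 mM than at 0 mM (1.43 to 2.00), and equal table totals turned its log2 ratio at 2 mM from 0.13 to -0.33. Without it the log2 ratio of the opposite strand at 4 mM was -0.25. ptc-MIR169af-p3, the form shifted by 1 base, stood at 56.3, 57.2, 64.5 and 69.5, and all of its intervals against 0 mM held 1. Equal table totals turned its log2 ratios from 0.02, 0.19 and 0.30 to -0.43, -0.36 and -0.10.

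ptc-miR169n-3p stood at 46.1, 9.86, 6.66 and 27.6 normalized read counts in order of dose, on 34, 10, 8 and 31 reads. It was 4.68-fold lower at 2 mM (2.26 to 10.6), 6.92-fold lower at 4 mM (3.14 to 17.3) and 1.67-fold lower at 8 mM (0.995 to 2.81). It was thus high at 0 mM and low at 2 and 4 mM, the reverse of ptc-miR169n-5p_R+1, the form named for the other arm. There were 1.79 reads of the 5p form per read of the 3p form at 0 mM (1.16 to 2.82), then 20.7 (11.03 to 43.8), 23.9 (11.9 to 56.1) and 4.97 (3.36 to 7.56) with rising dose. ptc-MIR169ac-p3, named after its values were seen, also stood highest at 0 mM, though close to its level at 8 mM. It stood at 36.6, 15.8, 11.7 and 33.9 normalized read counts, on 27, 16, 14 and 38 reads. It was 2.32-fold lower at 2 mM (1.21 to 4.61), 3.14-fold lower at 4 mM (1.59 to 6.48) and 1.08-fold lower at 8 mM (0.635 to 1.82).

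ptc-miR169b-3p_L+1 was high in 1 library only. It stood at 9.49, 45.4, 10.8 and 10.7 normalized read counts in order of dose, on 7, 46, 13 and 12 reads, and was 4.78-fold higher at 2 than at 0 mM (2.14 to 12.5). Its log2 ratios at 4 and 8 mM turned from 0.17 and 0.16 to -0.35 and -0.21 with equal table totals. ptc-miR169u-3p_R-1 was highest at 8 mM, at 9.49, 16.8, 19.2 and 42.8 normalized read counts. It was 4.51-fold higher at 8 than at 0 mM (2.03 to 11.8), while ptc-miR169u-5p_1ss16TA, named for the other arm, was 1.12-fold higher. The u-5p reads per u-3p read were 368 at 0 mM (178 to 916), then 189 (118 to 325), 184 (123 to 291) and 91.6 (68.9 to 124) with rising dose. For the arms named ac, reads of the A13G form per read of ptc-MIR169ac-p3 were 88.0 at 0 mM (60.3 to 134). They were then 386 (238 to 676), 716 (426 to 1309.6) and 180.1 (131 to 255) with rising dose. The trimmed form ptc-miR169ac_L-1, also named ac, had 35.8, 40.3, 47.0 and 48.6 reads, beside 27, 16, 14 and 38 of ptc-MIR169ac-p3. The ratio for ac thus depends on which form is taken. Arms were paired by their names alone, since hairpin positions were not used here.

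**Figure D3:**
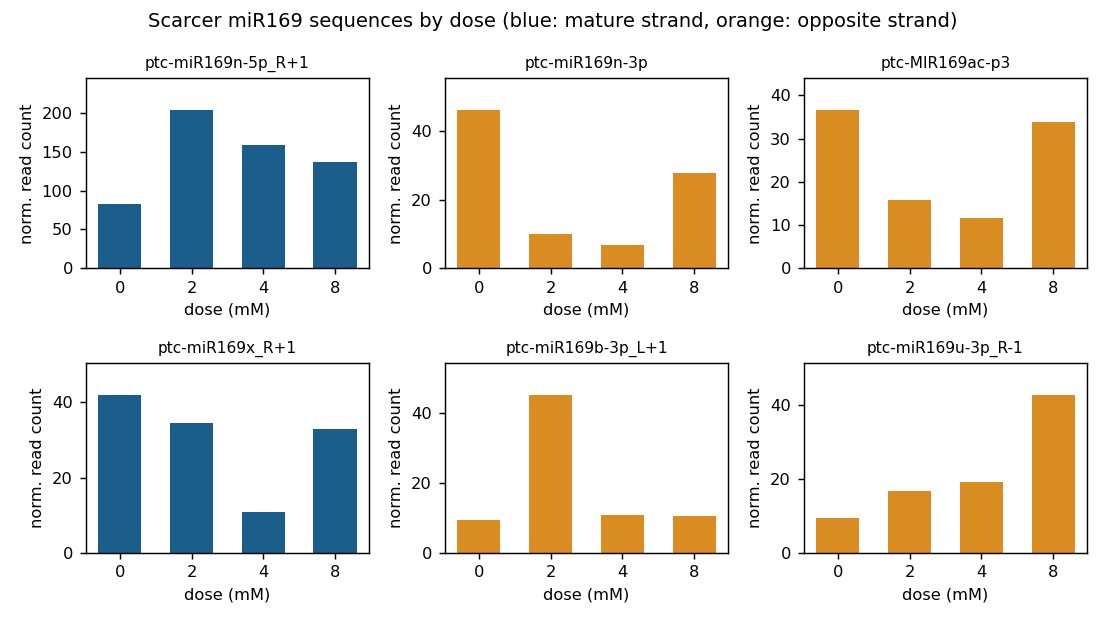
Normalized read count (vertical axis, from 0) of 6 scarcer miR169 forms by dose in mM (horizontal axis), 1 library per bar and no error bars. ptc-miR169n-5p_R+1 is lowest at 0 mM, at 82.7, where ptc-miR169n-3p is highest, at 46.1, and ptc-miR169b-3p_L+1 stands out at 2 mM, at 45.4.

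Of the 28 members, 17 had a mean level of 10 normalized read counts or more over the 4 libraries and 11 did not. The lowest mean among those kept was 15.2 and the highest among the others was 7.57. A 2-fold difference was counted on log2(value + 1). At 2 mM against 0 mM, 2 of the 17 were at least 2-fold higher, 3 lower and 12 between, where 20.9% of all 350 sequences past the same filter were higher and 23.7% lower. At 4 mM, 3 were higher, 3 lower and 11 between, against 18.9% and 25.7% of all. At 8 mM, 2 were higher, 1 lower and 14 between, against 14.9% and 21.4%. From 2 to 4 mM, 1 was higher (ppe-MIR169i-p3_2ss16GT19TA, at 1.06, or 0.96 with equal table totals) and 2 lower, against 13.7% and 14.6% of all, and from 4 to 8 mM, 4 were higher and 1 lower, against 8.29% and 7.43%. The 4 that were higher at 8 than at 4 mM were ptc-miR169x_R+1, ptc-MIR169ac-p3, ptc-miR169n-3p and ptc-miR169u-3p_R-1, named after their values were seen, each on 8 to 23 reads at 4 mM.

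The median log2 ratio of the 17 members to 0 mM was 0.02 at 2 mM, 0.06 at 4 mM and 0.17 at 8 mM, beside 0.04, 0.03 and -0.02 over all 350 sequences. Member ratios ran from -2.12 to 2.14 at 2 mM, from -2.62 to 1.37 at 4 mM and from -1.73 to 2.06 at 8 mM. ppe-MIR169i-p3_2ss16GT19TA, the pyrimidine-rich sequence, gave the lowest value at 8 mM. It stood at 23.1, 9.86, 21.7 and 6.24 normalized read counts, on 17, 10, 26 and 7 reads, and was 3.70-fold lower at 8 than at 0 mM (1.46 to 10.5).

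**Figure D4:**
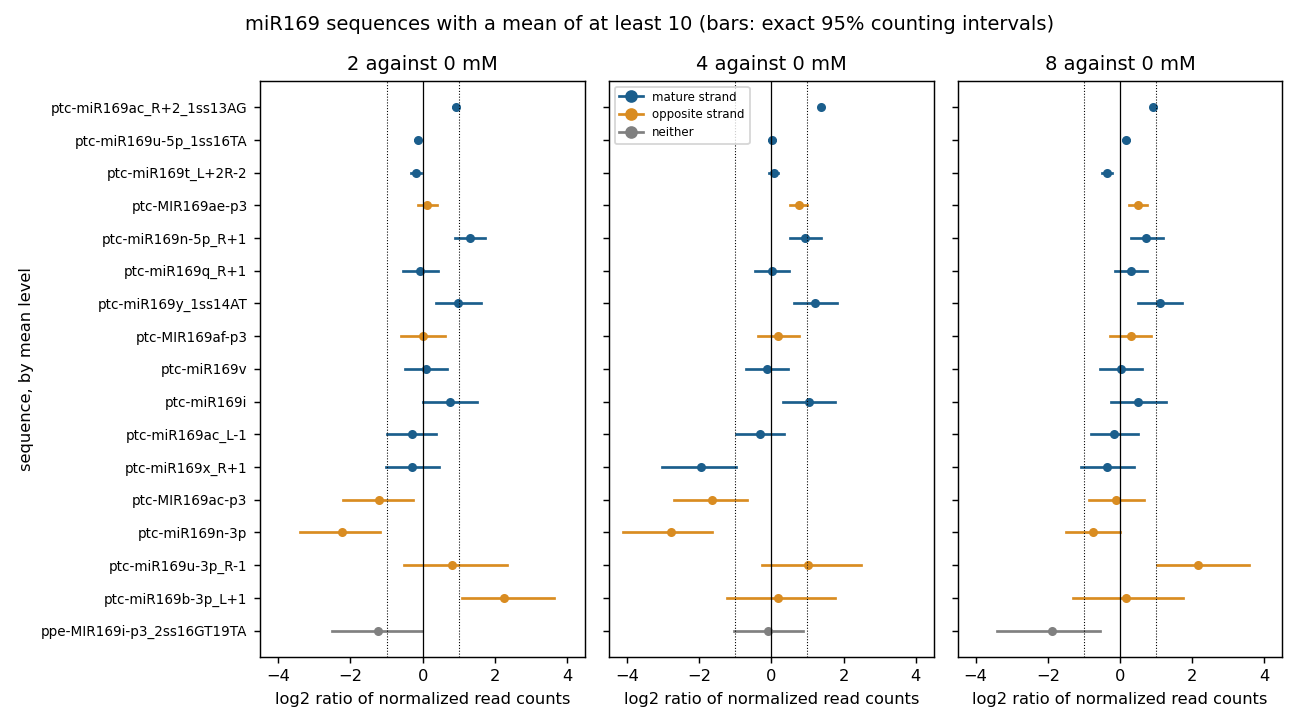
Log2 ratio of normalized read counts to 0 mM (horizontal axis) for the 17 miR169 sequences with a mean of at least 10 (vertical axis, by mean level), at 2, 4 and 8 mM. Points are plain ratios, bars are exact 95% counting intervals, dotted lines mark 2-fold, and colours mark the strand. ptc-miR169ac_R+2_1ss13AG is 2.59-fold higher at 4 mM, where ptc-miR169u-5p_1ss16TA is 1.01-fold and ptc-miR169t_L+2R-2 1.05-fold higher, and the widest departures are scarce forms.

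The 11 members below the filter reached at most 19.99 normalized read counts in any library, and 10 of them were listed at 0 in at least 1 library. Members listed above 0 numbered 22, 22, 24 and 24 of 28 at 0, 2, 4 and 8 mM. Of all 529 sequences in the table, 409, 438, 445 and 441 were listed above 0. If a listed 0 is held to mean no more than 3 reads, it allows up to 4.07, 2.96, 2.50 and 2.67 normalized read counts. The smallest member sum above 0 was 3.5 reads, so fewer reads may have been cut before deposit. A cut above 3 reads would raise these limits. ptc-MIR169y-p3 was listed at 0, 0, 24 and 7 reads, and ptc-MIR169x-p3_1ss10TC at 0, 0, 0 and 16 reads at 0, 2, 4 and 8 mM. ptc-miR169d, the sequence with 6 rows, was listed at 11, 7, 0 and 7 reads. These 3 were picked after their values were seen. The 5 members of neither strand summed to 49.5, 20.7, 38.7 and 22.7 normalized read counts.

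Among the 88 family totals with a mean of at least 10, miR169 ranked 36 from the highest by its log2 ratio at 2 mM, 20 at 4 mM and 26 at 8 mM. By mean level it was family 22 of the 121 in the table. At least 2-fold higher were 14.8% of the families at 2 mM, 14.8% at 4 mM and 11.4% at 8 mM, and at least 2-fold lower were 14.8%, 23.9% and 18.2%. miR169 was in neither set at any dose. Of 14 listed families whose targets are transcription factors, 13 passed the filter. At 4 mM, 1 of the 13 was at least 2-fold higher and 3 were lower, the other 9 lying between, and their median was -0.34 beside -0.01 for all families. The higher one was miR167, which targets auxin response factors, at 1.04, a value that equal table totals lower by 0.57, and the lower ones were miR157, miR319 and miR828. At 2 mM, 2 were higher, 2 lower and 9 between (median 0.01 beside 0.19), and at 8 mM 0 were higher, 3 lower and 10 between (median -0.47 beside 0.02).

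Of 10 families linked to nutrient supply, 7 passed the filter. At 4 mM, 0 of the 7 were at least 2-fold higher and 6 were lower, the other 1 lying between. Of all families, 14.8% were higher and 23.9% lower. The median log2 ratio of the 7 was -1.61, beside -0.01 for all families. All 7 lay below the 0.71 of miR169, as did most families, since miR169 ranked 20 of 88. The 6 were miR395, miR397, miR398, miR399, miR408 and miR827, and miR393, which targets auxin receptors, was at -0.13. At 2 mM, 1 was higher, 1 lower and 5 between (median 0.43 beside 0.19 for all families). At 8 mM, 0 were higher, 3 lower and 4 between (median -0.98 beside 0.02). Of all families, 14.8% were higher and 14.8% lower at 2 mM, and 11.4% and 18.2% at 8 mM. Above miR169 lay 4 of the 7 at 2 mM, 0 at 8 mM, and all 7 in the step from 4 to 8 mM. Among all 88 families miR169 ranked 36, 26 and 66 from the highest in these comparisons. Most families thus lay above it from 4 to 8 mM, as did 11 of the 13 transcription factor families.

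The 5 families whose totals followed the 4 doses most closely to miR169 were miR6445, miR476, miR5368, miR472 and miR167. Likeness was the root mean square difference of the log2 totals, each centred on its own mean over the 4 libraries, among 59 other families with a mean total of at least 100. It was 0.090 for miR6445, 0.116 for miR476, 0.120 for miR5368, 0.146 for miR472 and 0.149 for miR167. miR6445 stood at 4181, 6162, 7957 and 6013 normalized read counts, lowest at 0 mM and highest at 4 mM like miR169, though its level at 8 mM lay below that at 2 mM and the order was reversed in miR169. With 4 libraries that share their scaling, this is a description of them only.

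**Figure D5:**
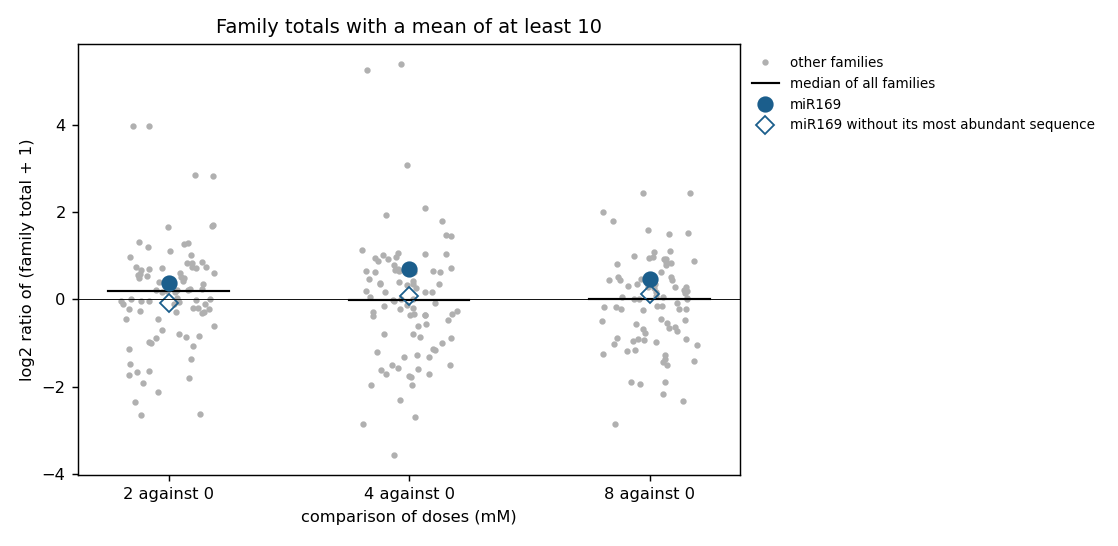
Log2 ratio to 0 mM of the totals of 88 families (vertical axis) at 2, 4 and 8 mM (horizontal axis), 1 point per family, with random sideways placement. Filled circles mark miR169, at 0.38, 0.71 and 0.47, open diamonds mark it without its most abundant sequence, at -0.08, 0.09 and 0.12, and lines mark the median of all families. miR169 lies within the body of the families at each dose.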

How the data were processed

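Small RNA of poplar leaves was sequenced in 4 libraries, 1 per dose. The submitters' processing notes list bcl2fastq 1.8.4. How reads were mapped and counted, and against which build or microRNA set, is not given in the sources used here. Raw values are estimated counts as deposited by the authors, many of them fractions. The normalized values are a linear signal deposited by the authors. They equal the raw value times 1.36, 0.986, 0.833 and 0.891 at 0, 2, 4 and 8 mM, with no division by length. A text line on a p-value of 0.05 divides the rows of the authors' deposited table. Of the 28 miR169 sequences, 19 stand before the line and 9 after it, beside 447 and 82 of all 529 sequences. These are positions in the table, not sizes of a p-value. The test behind the line is not named and the line was not used.

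Where a sequence stood in several rows, these held equal values and were summed. There were 134 sequences with 2 rows, and for 88.1% of them the summed raw values were whole (within 0.01) in all libraries, against 10.4% for 1 row alone. Of the 28 members, 11 had sums that were not whole, and how such fractions arose is not stated. Among these were the most abundant forms, namely the A13G form, ptc-miR169u-5p_1ss16TA, ptc-miR169t_L+2R-2 and ptc-MIR169ae-p3. Log2 ratios used a pseudocount of 1 and sequences with a mean of at least 10. Folds carry exact conditional binomial intervals from raw counts rounded to whole reads, and shares carry Wilson intervals. Named in full were members with a mean of at least 50, the highest and lowest ratio in each comparison and the most abundant hairpin-arm form. The members and lists were chosen with earlier results of these data known. The transcription factor list was miR156, miR157, miR159, miR160, miR164, miR165, miR166, miR167, miR171, miR172, miR319, miR396, miR828 and miR858. The nutrient list was miR393, miR395, miR397, miR398, miR399, miR408, miR826, miR827, miR857 and miR2111. Scripts ran in Python 3.11.15 with pandas 2.3.3 and scipy 1.17.1, and were tested on simulated data.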

Additional observations from a re-analysis of the deposited data

How the results depend on the processing

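With 1 library per dose, no paired analysis was possible because the groups share no replicates, and no library could be left out. Values below are given for 2, 4 and 8 against 0 mM, then 4 against 2 and 8 against 4 mM. With equal table totals the family log2 ratios were -0.081, 0.14, 0.069, 0.22 and -0.074, and those of the mature strand -0.060, 0.16, 0.075, 0.22 and -0.084. The opposite strand stood at -0.40, -0.11 and 0.068 against 0 mM and at 0.17 for 8 against 4 mM. Members at least 2-fold higher then numbered 1, 0 and 1 at 2, 4 and 8 mM and 0 from 2 to 4 mM, and 2 were lower at 8 mM. Shares of all sequences were counted only for the main setting and the filters below. Member counts under the other settings are thus not read as results about miR169. Taking 1 row per sequence gave family values of 0.22, 0.51, 0.35, 0.29 and -0.16 and mature values of 0.24, 0.51, 0.35, 0.28 and -0.17. Shares of the table became 0.200%, 0.219% and 0.234% at 2, 4 and 8 mM, and counts became 0 for lower at 8 mM, higher from 2 to 4 mM and lower from 4 to 8 mM. Without the most abundant sequence the family stood at -0.078, 0.089, 0.12, 0.17 and 0.026. The same step, chosen for single strands after seeing the data, gave -0.082, 0.056, 0.088, 0.14 and 0.032 for the mature strand. It gave -0.25 at 4 mM, -0.18 from 2 to 4 mM and 0.68 from 4 to 8 mM for the opposite strand.

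Counts of members depend on the filter. With no filter, among the 24, 25, 25, 27 and 27 members above 0 in either library, 4, 6, 5, 6 and 7 were higher and 6, 5, 4, 6 and 5 lower. Of all sequences so chosen, 28.5%, 28.1%, 23.9%, 20.4% and 13.2% were higher and 26.6%, 27.1%, 25.4%, 19.2% and 15.9% lower. At a mean of at least 50, 1, 2, 1, 0 and 0 of 9 members were higher and 0 lower in each comparison, beside 19%, 15%, 12.4%, 9.29% and 3.54% of all 226 sequences higher and 20.4%, 23%, 16.4%, 11.5% and 3.1% lower. A pseudocount of 10 gave 1 lower at 2 mM, 1 higher at 8 mM, 0 higher from 2 to 4 mM and 0 lower from 4 to 8 mM. Median-of-ratios factors, a pseudocount of 0 or 0.5, Populus names only, members past the filter only and leaving out the 5 members of neither strand (chosen after seeing the data) moved no family or strand ratio beyond its counting interval, and no count by over 1.5 times. Equal table totals changed the sign of 16 of 65 ratios of named sequences, and were also applied, as a choice made after seeing the data, to the family without its most abundant sequence and to ptc-miR169i. The cause was not tested. Depth limits the scarce forms, whose intervals span several-fold.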
